A study of Mus musculus with 3 samples.

Results

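The mitochondrially encoded genes of the mouse are the 37 genes whose symbols begin with mt-, and they were taken by that prefix from the 55536 genes of the GENCODE M21 annotation. They comprise 13 mRNA genes, 2 rRNA genes and 22 tRNA genes, all on chromosome M of the assembly mm10. The samples were naive CD4 αβ T cells, described in the labels as thymus-derived, of 1 male mouse of the strain B6.SJL-Ptprca Pepcb/BoyJ, a C57BL/6 congenic line with the Ptprca allele of CD45, at an age of 5 months. RNA was selected for polyA tails, sheared by sonication (Covaris) and sequenced as 3 technical libraries of 1 biological replicate, with no treatment, no second genotype and no second animal. Each SD is thus taken over these 3 libraries (n = 3), and there were no conditions or animals to compare.

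Mitochondrial DNA is a small circle that is transcribed from both strands into long precursors. These precursors are cut, mostly at tRNAs that lie between the other genes, into rRNAs, mRNAs and tRNAs. The mRNAs encode core subunits of complexes I, III and IV of the respiratory chain and of the ATP synthase (complex V), the rRNAs build the mitochondrial ribosome, and the tRNAs translate the mRNAs inside the organelle. All other subunits of these complexes are encoded in the nucleus and imported. Most mitochondrial mRNAs receive a short polyA tail, which for some of them also completes the stop codon.

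The gene order bears on every value because neighbouring genes touch or overlap. Of 36 adjacent gene pairs, 12 had no base between them, and the widest gap was 32 bases. The plus strand of chromosome M held 12 of the 13 mRNA genes. The minus strand held 9 genes, namely mt-Nd6 and 8 tRNA genes. Annotated genes overlapped in 9 pairs, 3 of them on opposite strands. The longest overlap was that of the 2 ATP synthase genes, whose shared 43 bases open with the start codon of mt-Atp6 and close with the stop codon of mt-Atp8, both in capitals in the GENCODE M21 transcript sequence of mm10, plus strand. The overlap of the complex I genes mt-Nd4l and mt-Nd4, at chrM:10167-10173, was 7 bases, in capitals within 30 bases of the plus strand at chrM:10157-10186.
mt-Atp8/mt-Atp6 overlap (chrM:7927-7969): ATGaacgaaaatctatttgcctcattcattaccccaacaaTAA
mt-Nd4l/mt-Nd4 overlap (chrM:10157-10186): acctactacaATGCTAAaaattattcttcc

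Both pairs are read from bicistronic mRNAs in mammals, so a read that covers shared bases comes from an RNA that holds both genes. The other same-strand overlaps were 1 base between mt-Atp6 and mt-Co3, 2 bases each between mt-Nd1 and mt-Ti and between mt-Nd2 and mt-Tw, and 1 base between mt-Ts2 and mt-Tl2. On opposite strands, mt-Nd5 and mt-Nd6 shared 14 bases, mt-Co1 and mt-Ts1 shared 3, and mt-Ti and mt-Tq shared 3. Whether the counting used strand is not given in the sources used here, so sense and antisense reads of a gene cannot be told apart.

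The 13 mRNA sequences did not all open with ATG or close with a full stop codon. ATG opened 9 of them. GTG opened mt-Nd1, ATA mt-Nd2, ATT mt-Nd3 and ATC mt-Nd5. A full stop codon, TAA or TAG, ended 10 of the annotated sequences. The other 3, mt-Co3, mt-Nd4 and mt-Cytb, ended in a single T past the last codon, to which a polyA tail adds the missing letters. Their last 20 bases are shown because their annotated sequences end before a full stop codon. The capital marks the unpaired T, and all are plus-strand transcript sequence of mm10.
mt-Co3: catttattgatgaggatctT
mt-Nd4: aattacaggcctgacaataT
mt-Cytb: aatactaaaattatatccaT

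Expected counts are estimates of the reads of each gene and may hold fractions, and their totals were 14837442, 18207118 and 17505621 in libraries 1, 2 and 3. The cells carried the labelled markers. The CD4 T cell markers Cd3e, Trac, Cd4, Ccr7 and Tcf7 had mean levels from 444 to 2632 TPM, an abundance per length that is scaled to the same sum in each library. Of the 14 markers of other cells, Cd8b1 stood at 17.0 TPM and each of the rest at 2.06 TPM or less. Library 2 stood apart in 2 other gene groups. For libraries 1, 2 and 3, nuclear rRNA entries made up 0.299, 1.08 and 0.262% of TPM, and cytosolic ribosomal protein genes took 6.69, 9.50 and 6.40%. Effective length, the number of positions at which a read can start, was 49 bases below the length for every mitochondrial gene.

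The mitochondrial genes together held 2.94, 3.60 and 3.12% of TPM in libraries 1, 2 and 3, a mean of 3.22% ± 0.345 (SD). As a share of reads they held 1.28, 1.73 and 1.44% of expected counts. The mRNAs made up 76.7% ± 1.05 of the mitochondrial TPM, the rRNAs 10.8% ± 1.29 and the tRNA genes 12.5% ± 1.26. A single tRNA gene, mt-Ts1, accounted for most of the tRNA portion, and the 21 others together for 1.51% ± 0.398. By complex, the 3 genes of complex IV held 39.6% ± 0.919 of the mitochondrial TPM, the 2 of ATP synthase 19.8% ± 1.38, the 7 of complex I 9.86% ± 0.673 and mt-Cytb, the single gene of complex III, 7.44% ± 0.491. In bulk RNA, fewer cells of a type, fewer mitochondrial genomes per cell and less RNA per genome cannot be told apart.

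Detection followed the class of RNA. A level of 1 TPM or more in every library was reached by 29 of the 37 genes, against 11902 of all 55536 genes, or 21.4%. All 13 mRNAs and both rRNAs passed. Of the tRNA genes, 14 of 22 passed, but only 5 had at least 3 expected counts in every library, since 1 read on so short a gene is worth several TPM.

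Among the genes of cytochrome c oxidase (complex IV) was the mRNA of highest level. Mt-Co3, subunit III of its core, stood at 5524, 6844 and 6339.7 TPM in libraries 1, 2 and 3. Mt-Co1, which carries the haem and copper centre where oxygen is reduced, stood at 2942, 3939 and 3311 TPM. Mt-Co2, which takes electrons from cytochrome c, stood at 3159, 3156 and 2975 TPM. In each library mt-Co3 was above the other two, while mt-Co1 was below mt-Co2 in library 1 and above it in libraries 2 and 3, so that these genes could not be ordered. Mt-Co2 had a coefficient of variation of 3.40% over the libraries, against 14.8% for mt-Co1. With the reads assigned to nuclear copies of each gene added, a step described below that was chosen after seeing the data, these were 9.18% and 14.4%, and mt-Co1 was above mt-Co2 in all 3 libraries.

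Of the ATP synthase genes, mt-Atp6, the subunit a that forms the proton path, stood at 4149, 4669 and 3799 TPM, below mt-Co3 and above mt-Co1 and mt-Co2 in each library. Mt-Atp8, a small accessory subunit, stood at 2127, 2219 and 2078 TPM. Although both lie on 1 transcript, mt-Atp6 was 1.95, 2.10 and 1.83 times as high as mt-Atp8 in libraries 1, 2 and 3 (log2 ratio 0.97 ± 0.10 SD). With the reads of nuclear copies added, it was 3.01, 3.53 and 3.37 times as high (log2 ratio 1.72 ± 0.12 SD). Mt-Cytb, the cytochrome b of complex III, stood at 2116, 2558 and 2492 TPM. Its range overlapped that of mt-Atp8.

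The complex I genes had the lowest levels of the mRNAs. Mt-Nd1 was the highest of these, at 1101, 1399 and 1258 TPM. Mt-Nd4 stood at 472, 681 and 510.2 TPM and mt-Nd5, like mt-Nd4 a proton-pumping subunit of the membrane arm, at 342, 541 and 367 TPM. The ranges of mt-Nd1 and mt-Nd4 lay apart, at a log2 ratio of 1.19 ± 0.14 (SD). Mt-Nd6, the only mRNA read from the minus strand, stood at 324, 429.8 and 316 TPM, and mt-Nd2 at 254, 372 and 264 TPM. The part of antisense reads in the count of mt-Nd6 was not tested. Mt-Nd3 stood at 148, 199 and 126 TPM and mt-Nd4l at 122, 211 and 132 TPM, and neither was above the other in all libraries. Library 2 was the highest for all 7 complex I genes. Mt-Nd4 was 3.87, 3.23 and 3.88 times as high as mt-Nd4l in the 3 libraries (log2 ratio 1.87 ± 0.15 SD), although they share a transcript.

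**Figure D1:**
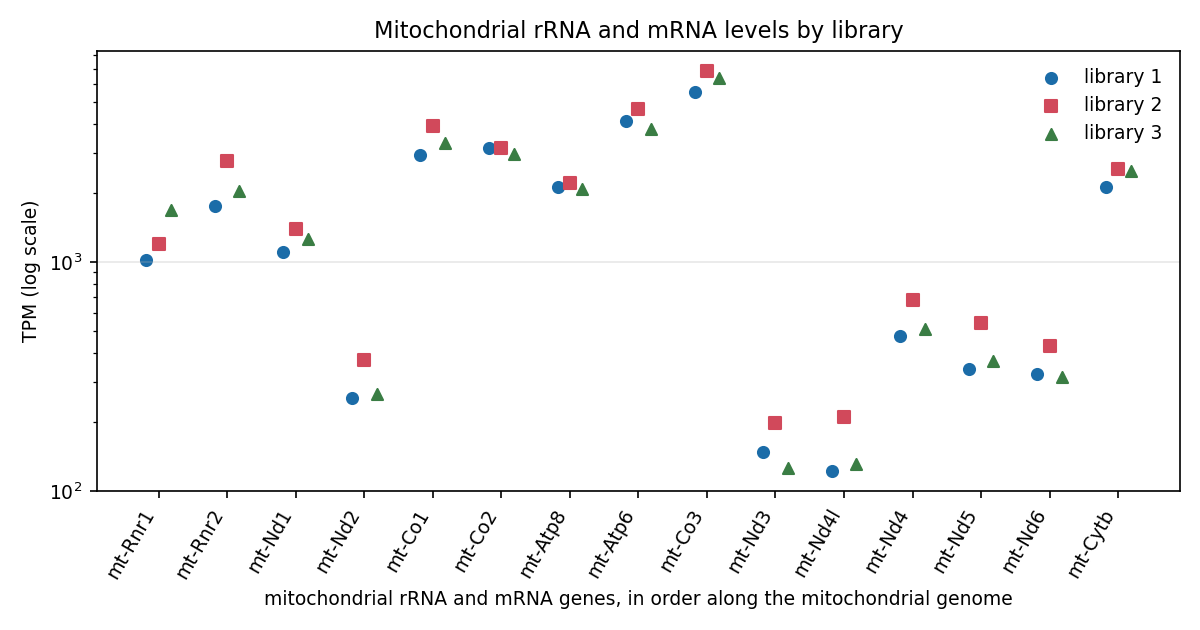
TPM (log axis) of the 2 rRNA and 13 mRNA genes, in order along the mitochondrial genome, with 1 point for each of the 3 technical libraries. Mt-Co3 is the highest gene in all 3 libraries (5524 to 6844 TPM), and mt-Nd3 and mt-Nd4l are the lowest (122 to 211 TPM).

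From the highest mRNA, mt-Co3, to the lowest, mt-Nd4l, the log2 ratio was 5.37 ± 0.31 (SD), a mean ratio of 42.0. Ranked by mean TPM, the order was mt-Co3, mt-Atp6, mt-Co1, mt-Co2, mt-Cytb, mt-Atp8, mt-Nd1, mt-Nd4, mt-Nd5, mt-Nd6, mt-Nd2, mt-Nd3 and mt-Nd4l. Of the 12 neighbouring pairs in this order, 5 had ranges over the libraries that did not overlap. These steps were from mt-Co3 to mt-Atp6, mt-Co2 to mt-Cytb, mt-Atp8 to mt-Nd1, mt-Nd1 to mt-Nd4 and mt-Nd2 to mt-Nd3. In 9 of the 12 pairs the order was the same in all 3 libraries, and the exceptions were mt-Co1 and mt-Co2, mt-Cytb and mt-Atp8, and mt-Nd3 and mt-Nd4l. The steps from mt-Co3 to mt-Atp6 and from mt-Co2 to mt-Cytb did not hold by posterior mean TPM, which averages over possible read assignments. By that estimate mt-Co2 stood at 2031, 2169 and 1955 TPM and mt-Cytb at 1792, 2245 and 2163 in libraries 1, 2 and 3. Mt-Co3 stood at 3099, 3934 and 3672 TPM and mt-Atp6 at 3154, 3734 and 3161.

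The rRNAs, which carry at most a few added A residues, were present after polyA selection. Mt-Rnr1, the 12S rRNA of the small ribosomal subunit, stood at 1018, 1201 and 1683 TPM. Mt-Rnr2, the 16S rRNA of the large subunit, stood at 1747, 2756 and 2047 TPM. Mt-Rnr2 was higher in each library, at a log2 ratio of 0.78, 1.20 and 0.28, so the size of the difference was not stable (0.75 ± 0.46 SD). The 13 mRNAs summed were above the 2 rRNAs summed at a log2 ratio of 2.84 ± 0.19 (SD). How strongly polyA selection lowered the rRNAs was not tested.

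The tRNA genes are 59 to 75 bases long, which leaves 10 to 26 starting positions for a read. Expected counts over all 3 libraries summed to 2442 for the 22 genes, and mt-Ts1, the serine tRNA that reads UCN codons, held 2147 of them. Mt-Te is the glutamate tRNA and had the next highest level. Both lie on the minus strand, and their sequences are shown because they carry nearly all tRNA reads. The capitals in mt-Ts1 mark the 3 bases opposite the stop codon of mt-Co1. In mammals the mature mt-Co1 mRNA keeps the stretch opposite this tRNA at its end. Both are GENCODE M21 transcript sequences of mm10, 5′ to 3′ on the minus strand.
mt-Ts1 (chrM:6870-6938): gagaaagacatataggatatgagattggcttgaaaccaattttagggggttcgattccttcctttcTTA
mt-Te (chrM:14071-14139): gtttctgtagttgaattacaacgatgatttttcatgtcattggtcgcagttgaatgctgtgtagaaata

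Mt-Ts1 had 574, 935 and 638 expected counts on its 20 starting positions, which gave 3343, 4193 and 3126 TPM. Its level was 1.14, 1.06 and 0.944 times that of mt-Co1 in libraries 1, 2 and 3, a log2 ratio of 0.06 ± 0.14 (SD), which is within the spread between libraries. With the reads of nuclear copies added to mt-Co1, mt-Ts1 lay below it in every library, at a log2 ratio of -0.38 ± 0.12 (SD). Copies of mt-Ts1 itself could not be found by the search used, so no reads were added to it. Mt-Te had 34, 57 and 27 expected counts, or 198, 256 and 132 TPM, and lay below its neighbour mt-Nd6 in each library (log2 ratio -0.90 ± 0.30 SD). Antisense and sense reads of mt-Ts1 cannot be told apart.

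The other tRNA genes with 3 or more counts in every library were mt-Tl1, a leucine tRNA, with 6, 15 and 8 counts, mt-Tc, the cysteine tRNA, with 7, 14 and 13, and mt-Ty, the tyrosine tRNA, with 4, 6 and 5. Mt-Tf and mt-Tl2 had 0 counts in all libraries, and 3 counts on mt-Tf would correspond to 18.4, 14.2 and 15.5 TPM. Counts of the tRNA genes differed by strand. Each of the 8 genes on the minus strand had 9 or more counts over the 3 libraries (range 9 to 2147, median 19.5), whereas 1 of the 14 genes on the plus strand did, with a range of 0 to 29 and a median of 3.5. That 1 gene was mt-Tl1. Genes on the minus strand lie opposite the strand that encodes most of the mRNAs, and the part of antisense reads in their counts was not tested.

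**Figure D2:**
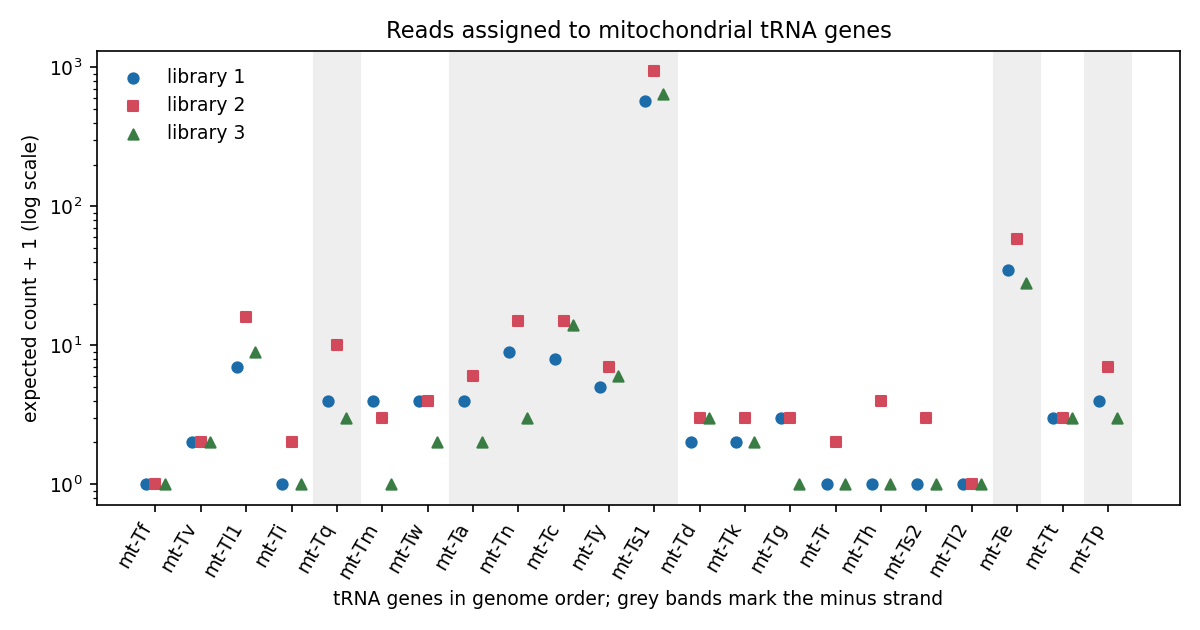
Expected counts plus 1 (log axis) of the 22 tRNA genes in genome order, with 1 point per technical library; grey bands mark the 8 genes on the minus strand. Mt-Ts1 stands at 574 to 935 counts and mt-Te at 27 to 57, and most plus-strand genes are at or near 0.

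Nearly identical copies of mitochondrial genes in the nuclear genome were assigned a large part of the reads of some of them. At 90% identity or more over 100 bases or more, 17 nuclear genes, all annotated as pseudogenes, matched 11 of the 37 genes, and 7 of them had 3 or more expected counts in a library. The 22 tRNA genes, at 59 to 75 bases, are shorter than this minimum, so none of them could match. Among these 17 genes, 7 form a block of 4663 bases on the minus strand of chromosome 1 (start 24611535, end 24616197). The block runs in the same order as chromosome M from 6381 to 11042. Mt-Ts1 lies in that stretch, between the copied parts of mt-Co1 and mt-Co2, where the gap is 140 bases on both chromosomes. In the block, 5 of the 7 copies were identical to the mitochondrial gene over their whole length, and the 7 together differed from it at 7 of 4149 bases. Of these 7 differences, 6 lie among the first 13 bases of Gm29216, the copy of the end of mt-Co1. At those positions, counted from 1 at the 5′ end of mt-Co1, the substitutions from gene to copy are T1056A, C1057T, A1059G, A1060G, C1062A and A1066T. The sequences below show that stretch in both, with differing bases in capitals and no difference after it, mt-Co1 on the plus strand and Gm29216 on the minus strand. The remaining difference was T3C in Gm28438, counted from the first base of mt-Nd3.
mt-Co1 (chrM:6381-6416): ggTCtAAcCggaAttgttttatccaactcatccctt
Gm29216 (chr1:24616162-24616197): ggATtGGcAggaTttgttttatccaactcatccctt

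A read that lies within an identical stretch fits the gene and its copy equally well, and the deposited estimates divide such reads between them. Gm10925, the copy of mt-Atp6, was assigned 12220.2, 22247 and 20676 expected counts in libraries 1, 2 and 3, beside 22511, 32902 and 24499 for mt-Atp6. Gm29216 was assigned 14243, 23504 and 17232 counts, beside 37791, 65706 and 50540.2 for mt-Co1. Gm29216 matches only the last 492 bases of mt-Co1, and its TPM was 1.27, 1.21 and 1.15 times that of the whole gene. Gm28437, the copy of mt-Co3, was assigned 4318, 3888 and 5089.5 counts, and Gm28661, the copy of mt-Co2, 48.1, 4207 and 1882. The copies of mt-Nd3, mt-Nd4l and mt-Nd4 were assigned 0 counts in every library. Of the copies elsewhere in the genome, Gm13340, a full-length copy of mt-Co1 on chromosome 2 with 97.6% identity, had 14.1, 26.6 and 19.8 counts, and Gm13341 and Gm11410 had 7.25 or fewer.

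The division of reads depended on the estimate. By expected counts, the chromosome 1 copy took 40.4% of the joint reads of mt-Atp6, 26.4% of those of mt-Co1, 9.06% of those of mt-Co3 and 8.34% of those of mt-Co2 (means of 3 libraries). By the posterior mean counts deposited in the same tables, which average over possible assignments, the copies took 45.1% for mt-Atp6, 26.4% for mt-Co1, 39.8% for mt-Co3 and 29.8% for mt-Co2, and also 17.0% for mt-Nd3 and 9.46% for mt-Nd4l. For mt-Co2 the share by expected counts ranged from 0.279% in library 1 to 15.8% in library 2, although the libraries came from the same cells. The share of mt-Co1, of which only the end is duplicated, was the same under both estimates. These assignments do not show transcription of the copies.

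**Figure D3:**
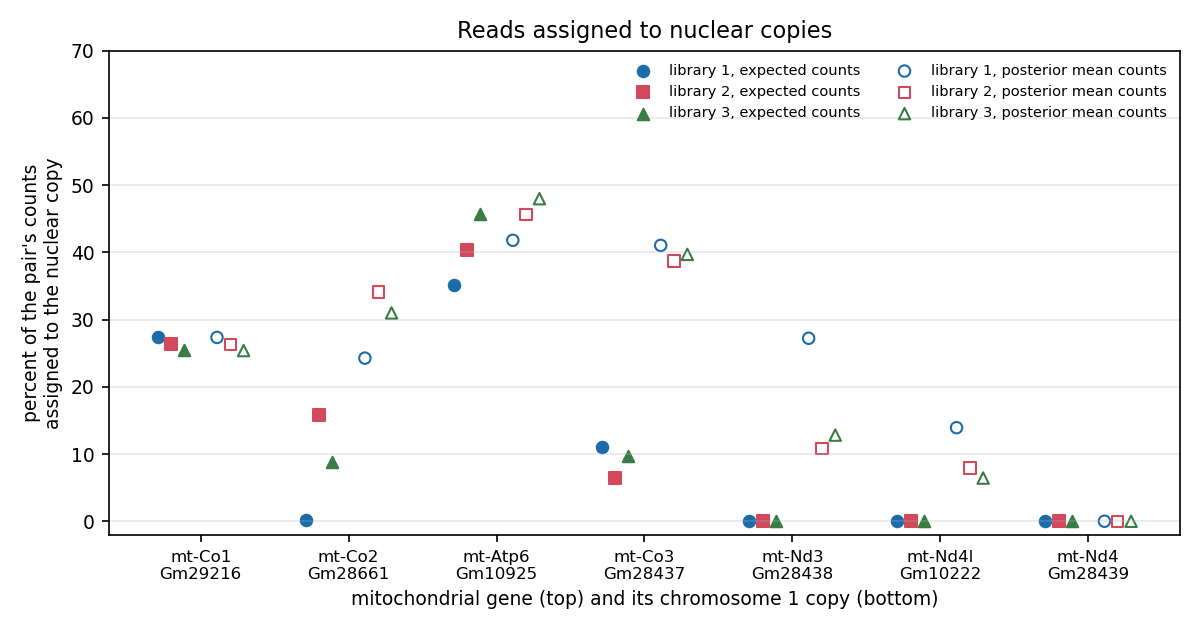
Percent of the counts of each gene and its chromosome 1 copy that were assigned to the copy, per technical library, by expected counts (filled) and posterior mean counts (open). The estimates coincide for mt-Co1 (26.4% by both) and lie apart for mt-Co3 (9.06% against 39.8%) and mt-Co2 (8.34% against 29.8%).

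The uncertainty given in the tables lay in the same genes. The posterior SD of the count, in percent of the count, was 6.96 to 11.2% for mt-Atp6, 4.28 to 6.84% for mt-Co3, 4.75 to 7.39% for mt-Co2, 9.51 to 18.8% for mt-Nd3 and 5.43 to 13% for mt-Nd4l. For mt-Co1 it was at most 0.288%, and for mt-Nd1, mt-Atp8 and mt-Rnr1 it was 0. When the counts of all matching copies were added to each gene, mt-Atp6 rose from 4206 to 7078 ± 716 TPM and took the highest rank. Mt-Co3 then stood at 6849 ± 574 TPM, mt-Co1 at 4614 ± 666 and mt-Co2 at 3395 ± 312. The other 11 mRNAs kept their ranks. The exchange of the 2 highest genes was not uniform, since mt-Co3 with its copy (6209, 7319 and 7018 TPM) remained above mt-Atp6 with its copies (6401, 7827 and 7005 TPM) in library 3.

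A second table, of whole-number counts on the older GENCODE M4 annotation, held the 13 mRNA genes among 22457 genes. In it, mt-Co2, mt-Atp8, mt-Atp6, mt-Co3 and mt-Nd4l were listed at 0 in every library, and mt-Nd3 at 3, 10 and 4. These are the 6 mRNA genes that lie wholly within the stretch of chromosome M that matches the chromosome 1 block. The 7 mRNA genes outside that stretch or only in part within it all had counts. Mt-Atp8 belongs to the 6 although no copy of it is annotated, and the gap between the copies of mt-Co2 and mt-Atp6 is 233 bases on both chromosomes. Of 7623 genes with a mean of 200 expected counts or more, 48 (0.630%) were at 0 in that table.

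For 7 of the 8 mRNAs with older counts, these varied less between libraries than the expected counts did, while the older totals spanned 1.13-fold. Neither count was scaled for depth here, and the totals of expected counts also differed, at 14837442, 18207118 and 17505621 in libraries 1, 2 and 3. Mt-Cytb had 2144, 2185 and 2167 older counts, or 1.96, 2.00 and 1.98 per starting position, a range of 1.02-fold, while its expected counts per starting position (18.2, 28.5 and 25.4) spanned 1.57-fold. Mt-Co1 had 1396, 1412 and 1397 older counts, a range of 1.01-fold against 1.74-fold. The range was 1.05-fold against 1.65-fold for mt-Nd1 and 1.07-fold against 1.87-fold for mt-Nd4. Mt-Nd2, whose expected counts were lower, had 990.0, 1369 and 1051 older counts, a range of 1.38-fold against 1.90-fold. The range was 1.25-fold against 2.05-fold for mt-Nd5 and 1.24-fold against 1.72-fold for mt-Nd6. The exception was mt-Nd3, at 3.33-fold against 1.75-fold on few older counts. The older count was 7.00 to 10.8% of the expected count for mt-Cytb and 33.3 to 45.9% for mt-Nd2, and the median over the 7623 genes was 49.9%. How duplicate and multiply matching reads were treated in that table is not given in the sources used here.

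The mitochondrial subunits had a higher median than the listed nuclear subunits of the same complexes, of which the complex I list holds core genes only. The median of the 13 mitochondrial mRNAs was 1101, 1399 and 1258 TPM in libraries 1, 2 and 3, and that of 41 nuclear subunit genes 189, 179 and 183 TPM (log2 ratio 2.76 ± 0.21 SD). By mean TPM, each mitochondrial subunit was above all listed nuclear subunits of its complex, and 7 of the 13 were above all 41. In complexes III, IV and V this held in each library. In complex I it held in library 2, while in libraries 1 and 3 it held for 5 of 7 genes, and mt-Nd3 and mt-Nd4l lay below Ndufs7 (156 and 148 TPM). In complex I the 7 mitochondrial genes had a median of 357 ± 63.6 TPM and the 7 nuclear core genes 102 ± 4.15 (log2 ratio 1.79 ± 0.28 SD). The log2 ratio was 3.77 ± 0.22 in complex III, 3.88 ± 0.13 in complex IV and 3.91 ± 0.18 in complex V.

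Among the nuclear core genes of complex I, Ndufs7 and Ndufv1 stood at 147 and 122 mean TPM, and Ndufs1, which holds iron-sulphur clusters, was the lowest at 80.1, below the 155 TPM of mt-Nd4l. In complex III, Uqcrh, Uqcrc1 and Uqcr10 stood at 348, 262 and 231 TPM and Uqcr11 at 53.9, against 2389 ± 238 for mt-Cytb. In complex IV, Cox4i1, Cox6a1 and Cox8a stood at 557, 374 and 274 TPM and Cox7b at 114, all below the 3097 ± 105 of mt-Co2. In the ATP synthase, Atp5b, the catalytic beta subunit, stood at 1021 TPM, Atp5a1 at 519.6 and Atp5h at 399, and Atp5g2, which encodes the same c-subunit as 2 other genes, at 10.2. The lowest mitochondrial and the highest nuclear gene were closest in complex I, at mean levels of 155 and 147 TPM, and changed order between libraries.

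**Figure D4:**
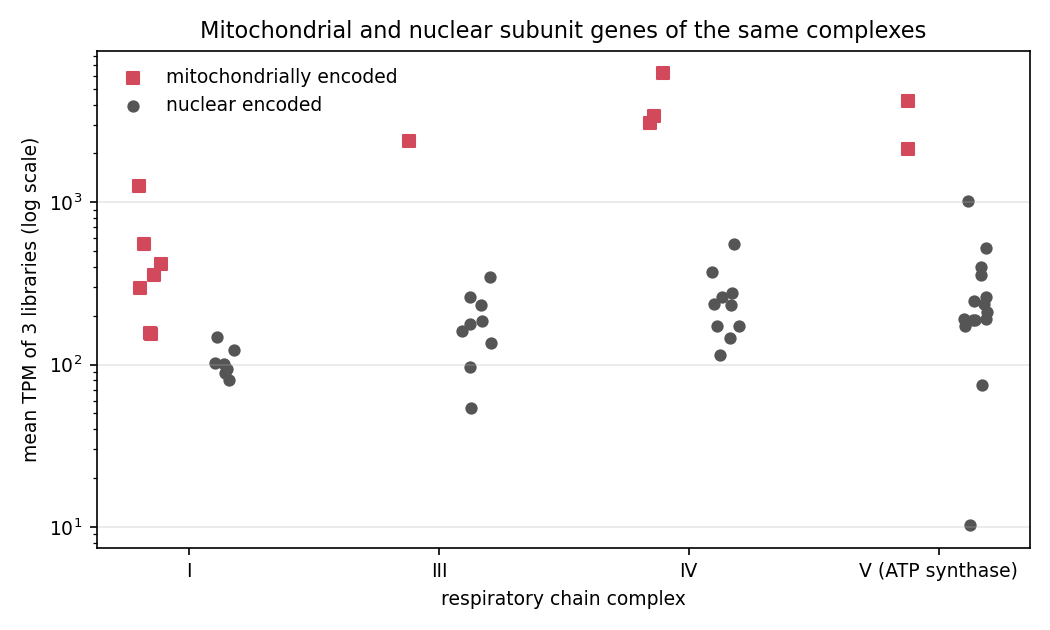
Mean TPM of the 3 technical libraries (log axis) of the 13 mitochondrial and 41 nuclear subunit genes, by respiratory chain complex, with 1 point per gene and sideways scatter only for legibility. By these means the mitochondrial genes lie above the listed nuclear ones in each complex; in complex I (155 against 147 TPM) the order of the closest genes is reversed in libraries 1 and 3.

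Mitochondrial mRNAs took a larger share of library 2 than of the other libraries. A chi-square test of homogeneity, which sets the rounded expected counts of each gene against TMM-scaled library sizes and covers counting error only, was run over all 13090 genes with a mean of 10 counts or more, with Benjamini-Hochberg adjustment. Of the 37 mitochondrial genes 18 had enough counts, and 17 of them differed between libraries at an adjusted p under 0.05, against 40% of all genes tested. All 13 mRNAs differed, each with its highest scaled count in library 2. Mt-Rnr2, mt-Ts1 and mt-Te were also highest in library 2, mt-Rnr1 was highest in library 3, and mt-Tc did not pass (adjusted p = 0.626). Of all genes tested, 18.2% differed and were highest in library 2. Calls rise with depth, and among the 7959 genes with a mean of 200 counts or more, which include all 13 mRNAs, 53.6% differed and 22.4% differed with library 2 highest.

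The differences were not of one size. Mt-Nd4l had TMM-scaled counts of 293, 549 and 317 in libraries 1, 2 and 3, a ratio of 1.88 between highest and lowest (adjusted p = 4.77e-22). Mt-Nd5 had 5868, 10074 and 6345, a ratio of 1.72. Mt-Co2 had 19379, 21032 and 18380, a ratio of 1.14 (adjusted p = 4.10e-41), and mt-Atp8 3186, 3609 and 3134, a ratio of 1.15 (adjusted p = 4.81e-09). The chi-square test leaves out the posterior SD of the count, which was 4.75 to 7.39% of the count for mt-Co2. It was 5.43 to 13% for mt-Nd4l, 9.51 to 18.8% for mt-Nd3 and 6.96 to 11.2% for mt-Atp6. The median ratio was 1.45 over the 13 mRNAs, against 1.20 over all genes tested and 1.14 over those with a mean of 200 counts or more. Mt-Rnr1 went another way, with 8906, 11421 and 14834 scaled counts, and mt-Rnr2 had 25875.5, 44338 and 30522.

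**Figure D5:**
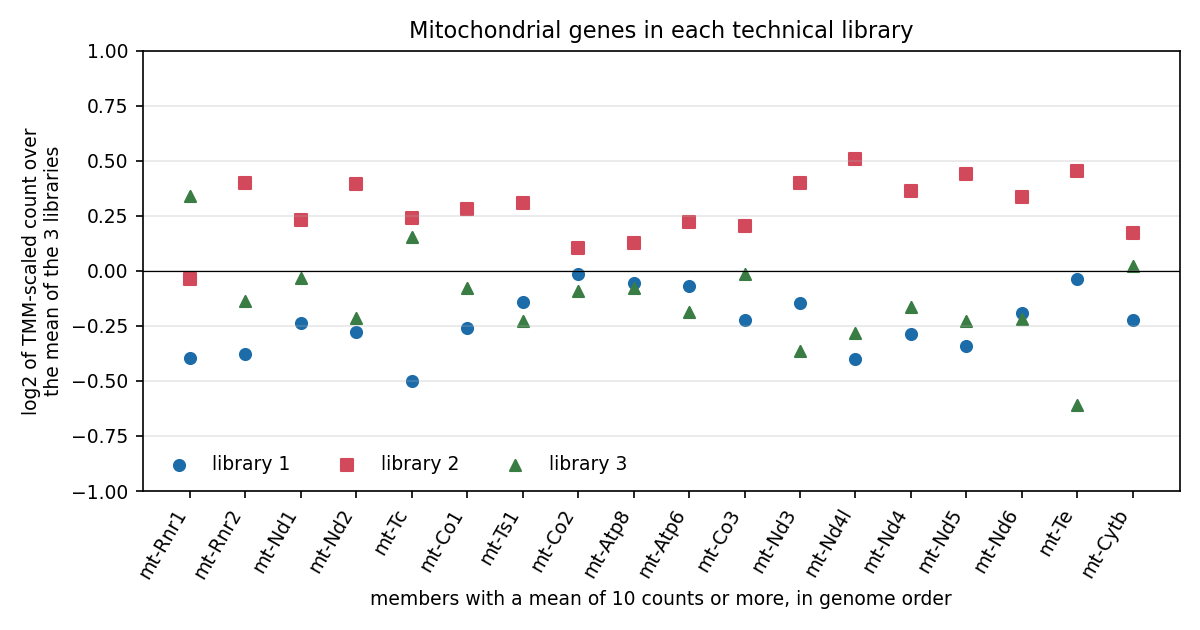
Log2 of the TMM-scaled count over the mean of the 3 technical libraries for the 18 mitochondrial genes with a mean of 10 counts or more, in genome order, with 1 point per library. Library 2 is the highest for every gene shown except mt-Rnr1, where library 3 is highest.

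Without library 2, 10 of the mitochondrial genes differed between libraries 1 and 3, among them 8 of the 13 mRNAs, against 14.7% of all genes tested, and the median ratio over the mRNAs was 1.09. Without library 1 there were 17 calls, against 36.8% of all genes tested, and without library 3 there were 16, against 27.6%. With the counts of nuclear copies merged before the test, 17 genes were called and 16 of these were highest in library 2, and the ratio of mt-Co2 became 1.29. The nuclear subunit lists did not all follow. In complex IV 7 of 10 nuclear genes were called, all 7 with library 2 highest, and in complex V 11 of 15, of which 8 were highest in library 2. In complex III 6 of 9 were called, 3 of them highest in library 2, and in complex I 2 of 7, of which 0 were highest in library 2. These counts stand beside 40% of all genes tested that were called and 18.2% that were called with library 2 highest, or 53.6% and 22.4% of genes with a mean of 200 counts or more. Nuclear rRNA entries and ribosomal protein genes were highest in library 2 as well, as given above, and the part of library preparation in the mitochondrial differences was not tested.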

How the data were processed

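The 37 genes, the gene lists and the tests were chosen with earlier results of these data known. Per the file headers, the authors deposited for each library a gene table with expected counts and posterior mean counts, both estimated reads, and with TPM. The deposited credibility-interval bounds (signal values per gene in TPM) and the posterior SD of the count (another deposited column, in reads) were read from the same tables. Whole-number counts per gene on GENCODE M4 were deposited in a second table, with totals of 5160325, 5816158 and 5703629. The accompanying text names mm10 and GENCODE M21 for the first tables. Aligner, counter, their versions and strand setting: not given in the sources used here.

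TPM are the authors' values, scaled over all entries including short entries that name no gene. The latter held 0.247, 0.200 and 0.325% of expected counts and entered neither library sizes nor tests. On 1 kilobase of starting positions 3 counts, the most that a count of 0 allows, correspond to 0.349, 0.269 and 0.294 TPM; such limits cover counting error only.

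Log2 ratios used TPM + 0.1. Expected counts were rounded and library sizes scaled by TMM (edgeR 4.0.16, R 4.3.3). Each gene was tested for homogeneity over libraries by chi-square (scipy 1.17.1), with adjustment by Benjamini-Hochberg over all genes tested. In simulated data with counting error only, the test called 8 of 12723 unchanged genes. It called 29 of 50 genes changed 1.3-fold in library 2. That check assumes what the test assumes, so it cannot show how the test behaves where libraries differ beyond counting error. Nuclear copies were found with blastn 2.17.0 among GENCODE M21 transcripts, and copies on chromosome 1 were also compared base by base without gaps. Sequences are from the GENCODE M21 transcripts of mm10. Named were all mRNA and rRNA genes, tRNA genes with 3 or more counts in every library, of each nuclear list the 3 highest members and the lowest, and nuclear copies with 3 or more counts in a library; list totals include some genes that are not reported here by name. Of 110 listed symbols 107 were found. Alternatives covered posterior mean estimates, no length correction or full length, other minimums and pseudocounts, library totals and DESeq2 1.42.0 size factors, and leaving out each library. Alternatives chosen after seeing the data added the copies' counts to the genes and compared posterior mean with expected shares.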

Additional observations from a re-analysis of the deposited data

How the results depend on the processing

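Of the alternatives to the 8 summary values, 46 left the value within 1 SD between libraries, or a count within 1.5 times, 16 moved it further and 1 weakened it. The 29 genes detected in every library were 21 at 10 TPM, 20 at 3 expected counts and 37 by posterior mean TPM. The mitochondrial share of TPM, 3.22%, was 2.52% by posterior mean TPM, 1.49% as a share of expected counts, 2.83% over protein-coding genes only, 2.81% without the tRNA genes and 4.01% with nuclear copies added. The log2 ratio of the highest to the lowest mRNA, 5.37, was 4.91 by posterior mean TPM and 6.94 by expected counts with no length correction. The log2 ratio of mt-Rnr2 to mt-Rnr1, 0.75, was 1.51 by expected counts with no length correction. That of summed mRNA to summed rRNA, 2.84, was 2.64 by posterior mean TPM, 2.19 by expected counts and 3.10 with nuclear copies added, the last chosen after seeing the data. The tRNA share of mitochondrial TPM, 12.5%, was 4.27% by counts over full length, 0.323% by expected counts, 14.3% by posterior mean TPM and 1.70% without mt-Ts1. The log2 ratio of mitochondrial to nuclear subunits, 2.76 by medians, was 3.08 by means. The number of genes that differed between libraries, 17, was 10 to 17 when each library was left out in turn, and 10 without library 2. Posterior mean TPM gave entries that name no gene 9.43 to 11.5% of the total, against 0.547 to 0.693% by TPM, which lowers the joint share of all named genes. Calls across all genes numbered 5238 and were 1903 without library 2. No paired analysis was possible because all libraries form 1 group.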

Other observations

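The nuclear genes that maintain, transcribe and process mitochondrial nucleic acids had list medians from 6.71 to 62.6 TPM, below each mitochondrial mRNA. By mean TPM Polg was above mt-Nd3 and mt-Nd4l, though it was below mt-Nd4l in library 2. In libraries 1 and 3, Trnt1 and Rexo2 were also above mt-Nd3 and mt-Nd4l. Of 9 genes of mitochondrial DNA replication and maintenance, Polg, the DNA polymerase, stood at 220.2 ± 29.9 TPM (SD over libraries, n = 3), Polg2, its accessory subunit, at 110.04 ± 7.73, Tfam, which packages the DNA, at 72.0 ± 6.98, and Mgme1, an exonuclease, at 8.47 ± 0.569. Of 9 transcription genes the median was 6.71 TPM. Mterf3 stood at 77.1 ± 1.05 TPM, the initiation factor Tfb2m at 70.1 ± 4.14, the RNA polymerase Polrmt at 40.3 ± 3.47 and Mterf1b at 2.13 ± 0.788. Of the RNA cleavage and tRNA maturation genes, 8 of 9 were matched, with a median of 31.7 TPM. Trnt1, which adds CCA to tRNAs, led them at 149.8 ± 20.8 TPM, and the RNase P subunits Hsd17b10 and Trmt10c stood at 51.6 ± 5.49 and 49.4 ± 7.23. Gtpbp3, a tRNA-modifying enzyme, was the lowest of them at 5.06 ± 1.10.

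Among 12 genes of mitochondrial mRNA stability, polyadenylation and decay, Rexo2, an oligoribonuclease, stood at 153 ± 11.8 TPM, Fastk at 100.3 ± 14.8, Mtpap, the mitochondrial polyA polymerase, at 56.6 ± 6.02 and Fastkd1 at 8.08 ± 0.140. The 10 translation factors had a median of 16.4 TPM, from Mtrf1 at 1.37 ± 0.734 to the elongation factor Tufm at 39.7 ± 1.58, with Gfm1 at 27.1 ± 1.84 and Mtif2 at 23.9 ± 2.81. All genes found in these lists except Mtrf1 reached 1 TPM in every library. Between libraries, 7 of 9 maintenance, 1 of 9 transcription, 2 of 8 cleavage, 3 of 12 stability and 2 of 10 translation genes differed by the chi-square test, against 40% of all genes tested. With library 2 highest, these counts were 3, 0, 0, 1 and 2, against 18.2% of all genes tested.

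Of the RNAs listed as lacking a polyA tail, 5 of 7 were matched. Whether any of them carried a tail in these cells was not tested. The small nuclear RNA Rn7sk had 24.4, 53.99 and 19.1 TPM in libraries 1, 2 and 3 and was highest in library 2. The histone mRNAs Hist1h1c and Hist1h4c stood at 30.9 ± 2.38 and 9.44 ± 2.24 TPM, the RNase P RNA Rpph1 at 4.59 ± 0.203, and Rmrp had 0 counts. The 2 mitochondrial rRNAs, at 1301 ± 344 and 2183 ± 518 TPM, were above all of these, but below the nuclear rRNA entry CT010467.1, which had 2942, 10734 and 2579 TPM and is not in that list.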
